A study of Mus musculus with 35 samples.

Results

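RNA of the mutant NELFB called MT194 was compared with RNA of wild-type NELFB in immortalized mouse embryonic fibroblasts whose own Nelfb had been deleted, to describe what the mutant did not restore. Of the 35 libraries of the series, 4 carry this comparison: 2 populations with MT194 and Ad-Cre (MT194-Cre) and 2 with wild-type NELFB and Ad-Cre (WT-Cre). They were chosen by construct and virus, without regard to any measured value. All populations were Nelfb flox/-, with 1 floxed and 1 deleted allele, and had received a lentiviral construct driven by the CMV promoter, either empty (EV) or encoding Flag-tagged mouse NELFB. Ad-Cre, an adenovirus that expresses Cre and GFP, deletes the floxed allele, whereas Ad-GFP leaves it in place, and cells were collected at day 7 after infection. The corresponding populations used as references here were EV-Cre, EV-GFP, MT194-GFP and WT-GFP, with 2 replicates each. Replicate 1 of one group was paired with replicate 1 of another, and likewise replicate 2. Each construct was present in 1 selected cell line, so a difference between MT194-Cre and WT-Cre also holds any difference between the 2 lines. The p-values measure the spread between replicates that remains once the shift between the 2 experiments is removed, estimated over all 20 populations. They do not measure the spread between independently derived lines. Reads on genes numbered 24644148 and 24873566 in MT194-Cre and 22704317 and 21151468 in WT-Cre. Because the samples are bulk RNA, fewer cells of a type and less RNA per cell cannot be told apart.

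NELF, made of NELFA, NELFB, NELFC or NELFD, and NELFE, holds RNA polymerase II in a paused state shortly after transcription starts, together with DSIF. P-TEFb, a kinase, releases the polymerase and displaces NELF. NELFB bridges the NELFA and NELFC side of the complex to NELFE, and the study describes MT194 as a form that has lost the NELFA and NELFC side while keeping NELFE. The mutation is shown here by the stretch of the Nelfb transcript that the mutagenic oligo covers, with the altered codons in capitals.
Nelfb transcript: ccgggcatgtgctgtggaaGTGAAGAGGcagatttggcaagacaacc
MT194 oligo: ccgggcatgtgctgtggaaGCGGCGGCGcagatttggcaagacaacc
The 3 codons lie in exon 4 of Nelfb at chr2:25210010-25210018 (GRCm38, which is mm10, minus strand). The oligo changes 5 bases, by which valine, lysine and arginine become 3 alanines. The study's supplementary sheets also name the mutant by another residue triplet, and the change given here is that of the oligo.

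The libraries showed a fibroblast profile. The 12 fibroblast markers summed to 19050 and 24130 CPM (CPM is reads scaled to library size after TMM normalization) in WT-Cre and to 17640 and 37470 CPM in MT194-Cre, with Col1a1 the most abundant. Fbln2 and Dcn were higher and S100a4 was lower in MT194-Cre, and Pdgfra passed the test with a smaller fall (−0.39, adjusted p = 0.0439). S100a4 was not called without MT194-Cre replicate 1 or without either WT-Cre replicate, and 1 of the 2 higher calls was lost without MT194-Cre replicate 2 or without either WT-Cre replicate. The other 7 fibroblast markers tested did not pass, and Thy1 was at 0.114 CPM or less in each of the 4 libraries. Markers of epithelial, endothelial and skeletal muscle cells summed to less than 2 CPM in each of the 4 libraries, and Krt14, Cldn4, Esrp1, Tie1, Emcn, Myod1, Myog, Myf5 and Ckm had no read. The 9 macrophage and leukocyte markers summed to 355 and 412 CPM in WT-Cre and to 207 and 392 CPM in MT194-Cre, nearly all of it Cd14, which fibroblasts also express, and Tyrobp was at 0. Adipocyte markers, mainly Fabp4, summed to 114 and 100 CPM in WT-Cre and 80.0 and 71.0 CPM in MT194-Cre, with Fabp4 lower by the test, a call lost without MT194-Cre replicate 1 or without WT-Cre replicate 2, and Plin1 at 0. Neural markers, mainly Nes, summed to 82.6 and 109 CPM in WT-Cre and 111 and 163 CPM in MT194-Cre, with Tubb3 higher by the test and Sox2 and Dcx at 0. The Tubb3 call was lost without MT194-Cre replicate 1 or without either WT-Cre replicate, and Tubb3 had 7.73 and 8.25 CPM in MT194-GFP against 2.90 and 4.43 CPM in WT-GFP (log2 fold change 1.10, adjusted p = 0.0733). In a fit that leaves out the replicate number, none of the fibroblast, adipocyte and neural markers was called. MT194-Cre replicate 2 had the highest fibroblast sum and a TMM factor of 0.835, the lowest of the 20 populations, against 1.07 in replicate 1 and 1.06 and 0.991 in WT-Cre.

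Nelfb RNA was higher in MT194-Cre than in WT-Cre. Nelfb (chromosome 2, 25199712 to 25211489) had 75.9 and 60.5 CPM in WT-Cre and 104 and 119 CPM in MT194-Cre. Its levels in the empty-vector line were 46.1 and 39.5 CPM with Ad-GFP and 7.97 and 5.46 CPM with Ad-Cre, a log2 fold change of −2.67 (adjusted p = 8.14e-08). Both MT194-Cre libraries stood above both WT-Cre libraries, and the log2 fold change was 0.71 (standard error 0.15, adjusted p = 0.00426 from edgeR, with the Benjamini-Hochberg adjustment over all genes tested, as for every adjusted p here). The call did not hold without the replicate block (adjusted p = 0.114) or without WT-Cre replicate 2. With Ad-GFP the order was the other way, at 74.0 and 62.1 CPM in MT194-GFP and 97.5 and 82.8 CPM in WT-GFP, a difference that did not pass the test (−0.40, adjusted p = 0.333). Reads of the construct and of the endogenous gene cannot be told apart in gene counts. Of the other NELF subunits, Nelfa had 43.9 and 39.9 CPM in WT-Cre and 41.2 and 30.04 CPM in MT194-Cre (−0.25, standard error 0.09, adjusted p = 0.0597). Nelfcd, which encodes NELFC and NELFD, gave 0.09 (standard error 0.11, adjusted p = 0.615) and Nelfe −0.18 (standard error 0.10, adjusted p = 0.206). Among the 11 genes of NELF, DSIF and P-TEFb with its 7SK regulators, Larp7, a 7SK-binding protein, was lower (−0.56, standard error 0.15, adjusted p = 0.0144), and Nelfb and Larp7 were the members called. Neither was called without WT-Cre replicate 2 or without the replicate block, and 2 members were higher without MT194-Cre replicate 2 or without WT-Cre replicate 1.

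Over all genes, 1510 of 13805 tested (10.9%) differed between MT194-Cre and WT-Cre with an adjusted p under 0.05 and a log2 fold change beyond 0.5 in size, the rule by which a gene is called here. Higher in MT194-Cre were 834 genes (6.04%) and lower were 676 (4.9%), and each had the same sign in both replicate pairs. A log2 fold change beyond 1 was reached by 449 of them (3.25%), 273 higher (1.98%) and 176 lower (1.27%). The replicate block, which removes the shift between the 2 experiments, decided most of these calls. Without it 191 genes (1.38%) were called, 77 higher (0.558%) and 114 lower (0.826%), all of them among the 1510. With only the compared libraries in the fit 736 genes were called, of which 725 were shared with the full set. Without WT-Cre replicate 2 the count was 868, of which 769 were shared with the full set.

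**Figure D1:**
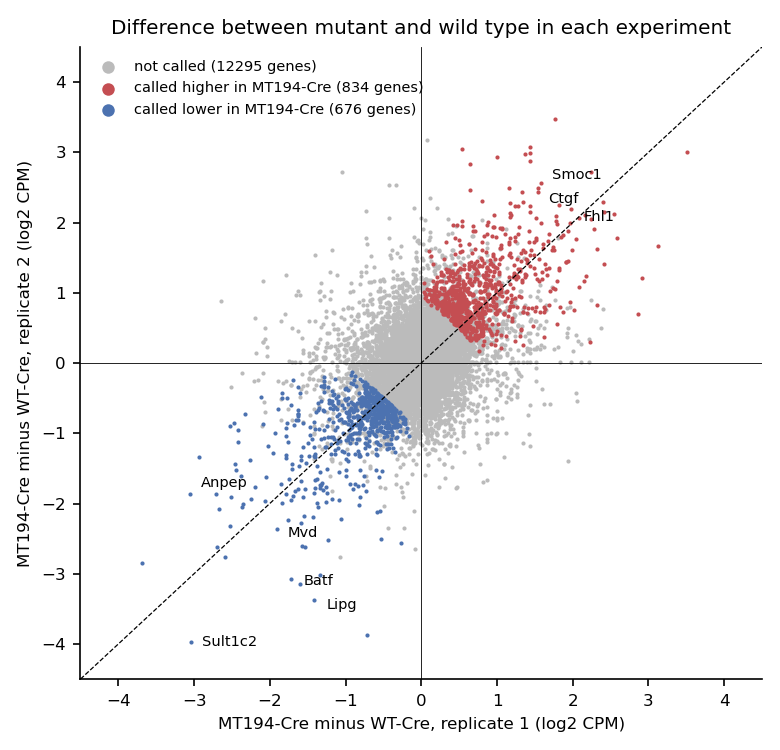
Each point is 1 of the 13805 genes tested, with the log2 CPM difference between MT194-Cre and WT-Cre in replicate 1 on the x axis and in replicate 2 on the y axis. The 834 genes called higher (red) lie in the upper right quadrant and the 676 called lower (blue) in the lower left, with Sult1c2 the farthest of the labelled genes.

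The largest increases were led by Smoc1 and Fhl1. Smoc1, a matricellular calcium-binding protein, had 18.3 and 22.8 CPM in WT-Cre and 55.3 and 135 CPM in MT194-Cre (log2 fold change 2.10, standard error 0.22, adjusted p = 6.07e-05). Fhl1, a LIM-domain protein of muscle and stress-bearing cells, had 23.3 and 22 CPM against 92.0 and 101 CPM (2.10, standard error 0.18, adjusted p = 8.07e-06). For Mcam, a cell adhesion molecule, the values were 25.2 and 33.2 CPM in WT-Cre and 107 and 140 CPM in MT194-Cre (2.09, standard error 0.22). The largest changes were taken only among genes whose MT194-Cre and WT-Cre libraries did not overlap. In all 3 genes replicate 2 of MT194-Cre was higher than replicate 1. Ctgf, a secreted YAP/TEAD target, had 121 and 125 CPM against 352 and 702 CPM (2.02, standard error 0.32, adjusted p = 0.00159). Serpini1, 1700029J07Rik, Cdhr1, Atp8b4, Tmem171, Cdnf and Tll1 were also among the 12 largest increases, which ranged from 1.82 to 2.10 on the log2 scale. Of these 12, 11 were also higher in EV-Cre than in EV-GFP, the exception being Cdhr1 (0.83, adjusted p = 0.0516).

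The largest decreases were led by Sult1c2, a cytosolic sulfotransferase. It had 21.8 and 17.1 CPM in WT-Cre and 2.57 and 1.01 CPM in MT194-Cre (log2 fold change −3.44, standard error 0.22, adjusted p = 1.18e-07). Stk32b, a kinase, had 7.86 and 4.63 CPM against 1.14 and 0.674 CPM (−2.76, standard error 0.23, adjusted p = 1.04e-06). Lipg, the endothelial lipase that acts on HDL phospholipids, had 7.90 and 11.9 CPM against 2.91 and 1.06 CPM (−2.21, standard error 0.36, adjusted p = 0.00106). The peptidases Anpep (−2.37, standard error 0.31) and Dpp4 (−2.25, standard error 0.23) fell by similar amounts, as did the transcription factor Batf (−2.30, standard error 0.25). Fam69c, Mvd, Kank4, Adh1, Fdps and Fmo1 completed the 12, which ranged from 2.00 to 3.44 in absolute log2 fold change. All 12 moved the same way in EV-Cre against EV-GFP with an adjusted p under 0.05, and 11 of them by more than 1 on the log2 scale, with Fam69c at −0.77. Without the replicate block 11 of the 12 decreases and 7 of the 12 increases still passed an adjusted p of 0.05.

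**Figure D2:**
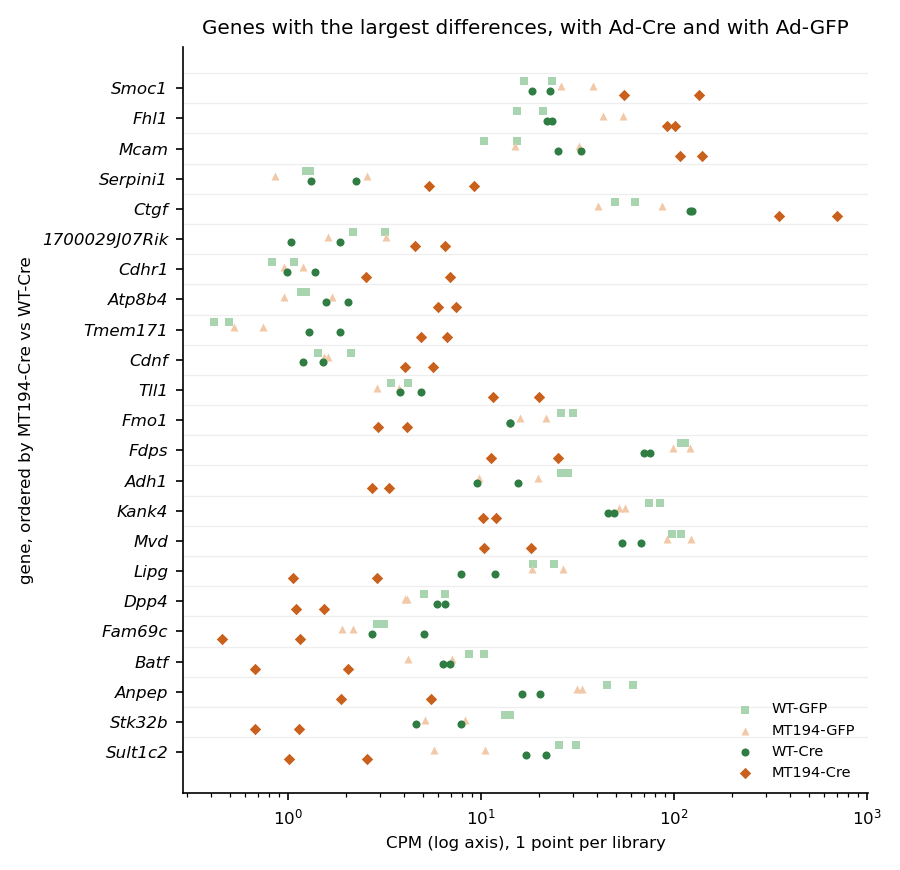
CPM on a log axis for 11 of the 12 largest increases and for the 12 largest decreases, 1 point per library, in WT-GFP, MT194-GFP, WT-Cre and MT194-Cre. In each gene shown both MT194-Cre libraries lie on 1 side of both WT-Cre libraries, as the rule that chose the genes required. The MT194-GFP libraries are displaced wholly to the same side of WT-GFP in 9 of the 12 decreases and in 3 of the 12 increases. The share of all genes displaced in this way with Ad-GFP was not counted.

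Much of the difference fell on genes that changed when Nelfb was deleted with no construct to replace it. EV-Cre against EV-GFP, which shares no library with MT194-Cre against WT-Cre, gave 1344 genes (9.74%) with an adjusted p under 0.05 and a log2 fold change beyond 1 in size, 714 higher (5.17%) and 630 lower (4.56%). Of the 714 that were higher in EV-Cre, 274 (38.4%, against 6.04% of all genes) were higher in MT194-Cre than in WT-Cre and 1 was lower. Of the 630 that were lower in EV-Cre, 280 (44.4%, against 4.9% of all genes) were lower in MT194-Cre and 6 were higher. Together 554 of the 1344 (41.2%) were short of the wild-type rescue, and 783 (58.3%) were not called in either direction. Short of rescue here asks only for a call in the direction of the EV change. It includes genes beyond the EV-Cre level, such as Mcam, with 61.2 and 91.7 CPM in EV-Cre against 107 and 140 CPM in MT194-Cre. Lipg, with 0.856 and 0.471 CPM in EV-Cre, lay between EV-Cre and WT-Cre in MT194-Cre (2.91 and 1.06 CPM). How many of the 554 were beyond EV-Cre was not counted. The median log2 fold change in MT194-Cre against WT-Cre was 0.659 over the 714 genes, with 0.489 in the replicate 1 pair and 0.718 in the replicate 2 pair. Over the 630 genes it was −0.659, with −0.709 and −0.591 in the pairs, and over all genes tested 0.0106. With the 2 Ad-GFP groups, in which the floxed allele was present, the medians between MT194 and WT were 0.044 and −0.0874. The same genes had medians of 1.48 and −1.47 in EV-Cre against EV-GFP. Their Cre effect, Ad-Cre against Ad-GFP, had medians of 0.937 and −0.955 with MT194 and of 0.345 and −0.425 with WT. Without the replicate block the EV genes numbered 900, of which 118 (13.1%) were short of the wild-type rescue.

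**Figure D3:**
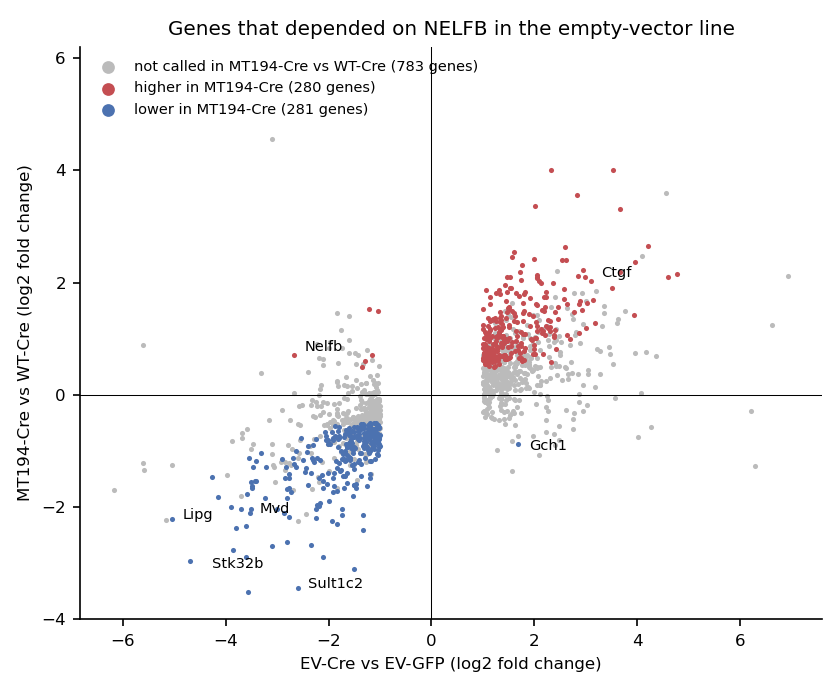
Each point is 1 of the 1344 genes called in EV-Cre against EV-GFP, with that log2 fold change on the x axis and the log2 fold change of MT194-Cre against WT-Cre on the y axis. Most of the 280 genes higher in MT194-Cre (red) lie on the right and most of the 281 lower (blue) on the left, and 783 (grey) were not called.

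Among the 7 genes that went against the change in EV were Nelfb itself, which the construct supplies, and Gch1, Cdh13, Csgalnact1, Kctd12 and Slc15a2. Gch1, the first enzyme of tetrahydrobiopterin synthesis, was the 1 gene that was higher in EV-Cre and lower in MT194-Cre, with 7.61 and 5.44 CPM in WT-Cre and 4.31 and 2.79 CPM in MT194-Cre (−0.88, standard error 0.22, adjusted p = 0.00803). Kctd12 had 1.78 and 1.00 CPM against 3.75 and 4.04 CPM (1.49, standard error 0.25), while the T-cadherin gene Cdh13, at 0.50, was close to the threshold on the fold change. Kctd12 also had more reads in MT194-GFP (6.16 and 3.88 CPM) than in WT-GFP (3.21 and 2.33 CPM), a difference that did not pass the test (0.85, adjusted p = 0.116), and its Cre effect was −0.34 with MT194 and −0.99 with WT. None of the 7 genes passed without the replicate block, with an adjusted p of 0.0781 for Kctd12, 0.337 for Gch1 and 0.544 for Cdh13.

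Genes of cholesterol synthesis were lower almost throughout. Cells make cholesterol from acetyl-CoA through mevalonate, farnesyl diphosphate and squalene, and the genes of these enzymes are transcribed together under SREBP2, often with NF-Y, which binds CCAAT boxes. Of all genes tested 4.9% were lower in MT194-Cre than in WT-Cre and 6.04% were higher. Of 21 steroid biosynthesis genes, all of them tested, 19 were lower in MT194-Cre than in WT-Cre and none was higher. Their median log2 fold change was −1.38, with −1.18 in the replicate 1 pair and −1.73 in the replicate 2 pair. In the same 19 genes both MT194-Cre libraries lay below both WT-Cre libraries, whereas these 2 groups overlapped in 61.5% of all genes tested. In 14 of the 19 both MT194-Cre libraries lay above both EV-Cre libraries. The list's Cre effect had a median of −2.82 in EV, −2.13 with MT194 and −0.623 with WT. For 17 of the 21 genes both WT-Cre libraries were in turn below both EV-GFP libraries. The shares of all genes with these orders against EV-Cre and EV-GFP were not counted. The median difference between the 2 lines with Ad-GFP was 0.0432, and no gene of the list was called there. Without the replicate block 10 of the 21 were called lower, and leaving out any 1 of the 4 libraries left 17 to 19.

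In the mevalonate arm, Hmgcs1, the HMG-CoA synthase (chromosome 13, 119690379 to 119708260), had 352 and 295 CPM in WT-Cre and 155 and 77.0 CPM in MT194-Cre (log2 fold change −1.54, standard error 0.18, adjusted p = 6.35e-05). Mvd, the mevalonate diphosphate decarboxylase (chromosome 8, 122433601 to 122443422), showed the largest fall of the list, from 68.0 and 54.2 CPM to 18.2 and 10.4 CPM (−2.11, standard error 0.14, adjusted p = 2.03e-07). Its levels were 106 and 81.2 CPM in EV-GFP and 8.60 and 7.53 CPM in EV-Cre, so that MT194-Cre lay nearer to EV-Cre than WT-Cre did. Fdps, which makes farnesyl diphosphate, had 75.5 and 69.9 CPM in WT-Cre and 25.2 and 11.4 CPM in MT194-Cre (−2.03, standard error 0.28, adjusted p = 0.000614). Idi1, the isopentenyl diphosphate isomerase, was the least abundant, with 5.09 and 5.10 CPM against 2.12 and 0.818 CPM (−1.82, standard error 0.46, adjusted p = 0.0143), and was not called without MT194-Cre replicate 2 or without WT-Cre replicate 2. Acat2, Mvk and Pmvk were lower as well, by 1.28, 1.48 and 1.07 on the log2 scale.

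In the sterol arm, Sqle, the squalene epoxidase, had 381 and 479 CPM in WT-Cre and 194.03 and 194.5 CPM in MT194-Cre (−1.13, standard error 0.14, adjusted p = 5.71e-05). Lss, the lanosterol synthase, had 126 and 113 CPM against 48.4 and 28.2 CPM (−1.65, standard error 0.14, adjusted p = 3.42e-06). Tm7sf2, a sterol C14 reductase, had 17.2 and 21.8 CPM against 4.92 and 5.92 CPM (−1.84, standard error 0.14, adjusted p = 2.55e-07). Dhcr7, which makes cholesterol from its 7-dehydro precursor, had the smallest adjusted p of all genes tested, at 8.41e-08, with 53.1 and 70.0 CPM in WT-Cre and 20.1 and 27.5 CPM in MT194-Cre (−1.38, standard error 0.08). Fdft1, Cyp51, Msmo1, Nsdhl, Hsd17b7 and Sc5d were also lower, between −0.66 for Sc5d and −1.67 for Cyp51. The 2 genes not called were Ebp, a sterol isomerase, with 37.2 and 50.5 CPM in WT-Cre and 32.8 and 39.9 CPM in MT194-Cre (−0.26, standard error 0.11, adjusted p = 0.109), and Ggps1, which leads to geranylgeranyl diphosphate and not to sterols (0.11, standard error 0.10, adjusted p = 0.479). Ebp was lower in EV-Cre and Ggps1 was not.

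**Figure D4:**
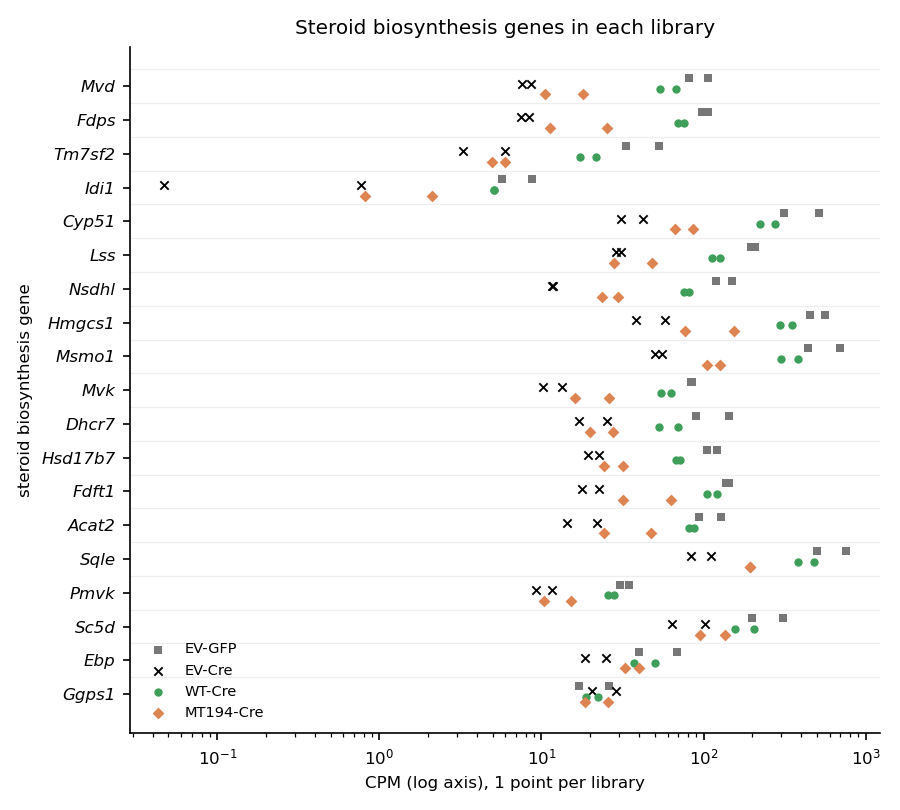
CPM on a log axis for 19 of the 21 steroid biosynthesis genes, 1 point per library, in EV-GFP, EV-Cre, WT-Cre and MT194-Cre. In 17 of the genes drawn both MT194-Cre points lie left of both WT-Cre points, and in 12 of them they also lie right of both EV-Cre points. Over all genes tested MT194-Cre and WT-Cre overlapped in 61.5%, and the share for the order with EV-Cre was not counted. Ebp and Ggps1 at the bottom are the 2 genes not called.

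Promoters of members that moved together are shown for 4 sterol genes, of which 3 were chosen for large falls after the values were seen, and Hmgcs1 because it opens the pathway. The windows run from 250 bases before to 50 after the start site, from RefSeq on GRCm38.p6 and in the direction of the gene. Capitals mark CCAAT or its complement ATTGG and, in Hmgcs1, the sterol regulatory element searched as TCACNCCAC.
Mvd, chr8:122443373-122443672, minus strand: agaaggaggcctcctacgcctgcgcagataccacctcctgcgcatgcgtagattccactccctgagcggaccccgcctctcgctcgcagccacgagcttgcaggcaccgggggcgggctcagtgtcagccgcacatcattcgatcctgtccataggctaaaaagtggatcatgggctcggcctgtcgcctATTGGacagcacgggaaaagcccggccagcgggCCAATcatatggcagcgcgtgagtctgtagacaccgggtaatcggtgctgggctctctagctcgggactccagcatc
Tm7sf2, chr19:6067801-6068100, minus strand: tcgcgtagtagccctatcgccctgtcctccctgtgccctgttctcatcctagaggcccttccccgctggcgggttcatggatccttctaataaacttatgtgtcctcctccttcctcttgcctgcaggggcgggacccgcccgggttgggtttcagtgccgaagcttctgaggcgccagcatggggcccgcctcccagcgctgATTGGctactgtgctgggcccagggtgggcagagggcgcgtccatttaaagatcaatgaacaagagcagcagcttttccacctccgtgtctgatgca
Idi1, chr13:8885356-8885655, plus strand: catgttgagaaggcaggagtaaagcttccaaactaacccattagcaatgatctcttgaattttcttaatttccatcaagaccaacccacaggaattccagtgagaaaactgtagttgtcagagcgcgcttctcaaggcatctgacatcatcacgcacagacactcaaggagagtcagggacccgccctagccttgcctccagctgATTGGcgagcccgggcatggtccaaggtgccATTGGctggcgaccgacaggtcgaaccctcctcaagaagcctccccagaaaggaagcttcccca
Hmgcs1, chr13:119690101-119690400, plus strand: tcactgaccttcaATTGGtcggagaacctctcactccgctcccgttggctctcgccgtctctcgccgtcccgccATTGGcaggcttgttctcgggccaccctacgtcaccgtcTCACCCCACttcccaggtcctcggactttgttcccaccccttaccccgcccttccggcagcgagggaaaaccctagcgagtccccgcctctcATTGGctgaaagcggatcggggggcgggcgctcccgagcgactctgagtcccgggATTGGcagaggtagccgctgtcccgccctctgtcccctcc
CCAAT, on either strand, was present in 15 of the 16 steroid biosynthesis promoters that could be read (93.8%) and in 43.1% of the promoters of 10848 genes tested. It was also present in 25 of 29 promoters of clustered histone genes (86.2%), a list with calls in the other direction, in 9 of 12 of fatty acid synthesis genes (75.0%), in 7 of 11 of smooth-muscle genes (63.6%) and in 5 of 14 of YAP/TEAD targets (35.7%). TCACNCCAC, on either strand, was present in 1 of the 16 (6.25%), that of Hmgcs1, and in 1.45% of all. A match describes the letters of these windows and is not a binding site.

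Genes that surround the pathway were lower in part, beside 4.9% of all genes tested that were lower and 6.04% that were higher. Of 14 SREBP regulators and genes of sterol uptake or efflux, 5 were lower and none was higher, and Insig1, Stard4 and Srebf2 were among the 5. Insig1, the anchor that retains SREBP in the endoplasmic reticulum and is itself an SREBP target, had 122 and 124 CPM in WT-Cre and 45.5 and 27.2 CPM in MT194-Cre (−1.76, standard error 0.23, adjusted p = 0.000394). Srebf2, which encodes SREBP2, had 425 and 507 CPM against 262 and 298 CPM (−0.73, standard error 0.12, adjusted p = 0.000395). Srebf1 (−0.12, adjusted p = 0.52), Scap (0.19, adjusted p = 0.243) and the efflux pump gene Abca1 (−0.19, adjusted p = 0.638) did not pass the test. The list median was −0.17. It was −0.435 without MT194-Cre replicate 2 and changed sign to 0.00775 without MT194-Cre replicate 1. Of 15 fatty acid synthesis genes 9 were lower and none was higher, with a median of −0.542. Scd2, a stearoyl-CoA desaturase and the most abundant of them, had 2095 and 2702 CPM in WT-Cre and 810 and 979 CPM in MT194-Cre (−1.42, standard error 0.12, adjusted p = 1.8e-06). Scd1 (−1.15), Elovl6 (−0.92), Fads1 (−0.87), Acss2 (−0.71), Fads2 (−0.64), Slc25a1 (−0.61), Fasn (−0.54) and Acly (−0.53) were lower too, while Acaca, which encodes the carboxylase that commits acetyl-CoA to fatty acids, gave −0.15 (adjusted p = 0.263). Without the replicate block 2 of the 15 and 2 of the 14 were called.

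Genes of contractility, growth signaling and secretion were higher in part, beside 6.04% of all genes tested that were higher and 4.9% that were lower. Of 13 smooth-muscle contractile genes 5 were higher and 1 was lower, with a median of 0.479. Acta2, the smooth-muscle actin, had 62.0 and 64.2 CPM in WT-Cre and 174 and 187 CPM in MT194-Cre (1.51, standard error 0.19, adjusted p = 0.000246), and EV-GFP had 17.8 and 15.9 CPM, so that both Ad-Cre groups were above it. Tagln (1.22, standard error 0.20), Cnn1 (1.19, standard error 0.18), Myl9 (0.65) and Csrp1 (0.61) were higher as well. Mylk, the myosin light chain kinase, went the other way, with 47.3 and 56.6 CPM against 15.2 and 33.4 CPM (−1.16, standard error 0.22, adjusted p = 0.0028). Without MT194-Cre replicate 1 the list had 8 genes higher and 1 lower, and without the replicate block 3 higher and none lower.

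Of 20 YAP/TEAD targets, with a median of 0.297, 7 were higher and none was lower, beside 6.04% and 4.9% of all genes tested. The targets called were Ctgf, Cyr61, F3, Crim1, Nuak2, Nt5e and Amotl2. Cyr61, a secreted matricellular protein now named Ccn1, had 204 and 298 CPM in WT-Cre and 427 and 1121 CPM in MT194-Cre (1.51, standard error 0.23, adjusted p = 0.0007). F3, tissue factor, had 144 and 161 CPM against 231 and 592 CPM (1.32, standard error 0.28, adjusted p = 0.00662). In Ctgf, Cyr61 and F3 replicate 2 of MT194-Cre, the library with the highest fibroblast marker sum (37470 CPM), was higher than replicate 1, and its part in the result was not tested. The count of the list was 2 without MT194-Cre replicate 2, 3 without WT-Cre replicate 2 and 1 without the replicate block. The Cyr61 promoter, from RefSeq on GRCm38.p6, is shown with the complement of the TEAD motif GGAATG in capitals.
Cyr61, chr3:145649936-145650235, minus strand: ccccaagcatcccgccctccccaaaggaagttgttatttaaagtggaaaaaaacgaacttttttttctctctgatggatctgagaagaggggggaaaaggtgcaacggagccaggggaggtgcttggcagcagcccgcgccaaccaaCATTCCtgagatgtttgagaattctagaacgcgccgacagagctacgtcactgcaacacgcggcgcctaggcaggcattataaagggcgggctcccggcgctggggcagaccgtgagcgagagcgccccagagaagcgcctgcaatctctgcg
GGAATG, on either strand, was present in 8 of the 14 YAP/TEAD promoters that could be read (57.1%), in 6 of 11 smooth-muscle promoters (54.5%) and in 14.5% of the promoters of genes tested.

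The 19 ERK feedback genes include phosphatases and ligands induced by ERK. Of these 7 were higher and none was lower, beside 6.04% and 4.9% of all genes tested. The list median was 0.588. Hbegf, an EGF-family ligand, had 30.4 and 31.4 CPM in WT-Cre and 68.6 and 134 CPM in MT194-Cre (1.64, standard error 0.27, adjusted p = 0.0017). Ereg, a second ligand of the family, had 33.4 and 41.6 CPM against 60.5 and 99.5 CPM (1.06, standard error 0.14, adjusted p = 7.97e-05). The phosphatases Dusp5 (1.31), Dusp1 (0.67) and Dusp4 (0.59), the inhibitor Spred3 (0.66) and the transcription factor Etv4 (0.72) were higher too. The count was 3 without WT-Cre replicate 1, 4 without WT-Cre replicate 2 and 0 without the replicate block. Of 26 kinases listed for the PI3K-AKT and RAF-MEK-ERK pathways, Map2k7 alone was called (−0.51, standard error 0.09, adjusted p = 0.00081). Its place in this list follows the paper, which names it under RAF/MEK/MAPK. The value was close to the threshold on the fold change, and none of the 26 was called by DESeq2 or without the replicate block.

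The counts of the next lists stand beside 6.04% of all genes tested that were higher and 4.9% that were lower. The TGF-beta list had 4 of 18 genes higher, among them Inhba, Smad7 and Fn1. Inhba, the activin beta A subunit, had 18.1 and 17.2 CPM in WT-Cre and 43.9 and 61.8 CPM in MT194-Cre (1.56, standard error 0.17, adjusted p = 1.96e-05), and Smad7, the inhibitory Smad, had 32.1 and 29.8 CPM against 51.7 and 55 CPM (0.79, standard error 0.15, adjusted p = 0.00187). Calls numbered 2 without WT-Cre replicate 2 or without the replicate block, and 8 without MT194-Cre replicate 1 or without WT-Cre replicate 1. Among 22 chemokines and cytokines, Cxcl15, Il6, Cx3cl1, Csf1 and Cxcl12 were higher. Il6 had 45.7 and 51.1 CPM against 72.6 and 152 CPM (1.17, standard error 0.23, adjusted p = 0.00415). None of the 22 was called without WT-Cre replicate 2 or without the replicate block, 2 were higher and 1 lower without MT194-Cre replicate 2, and 9 were higher without MT194-Cre replicate 1. Of 15 metalloproteinases and TIMPs 3 were higher, namely Timp3, Mmp17 and Timp2. Timp3, a matrix-bound inhibitor of metalloproteinases, had 313 and 385 CPM against 768 and 1478 CPM (1.62, standard error 0.23, adjusted p = 0.000352). The list median was 0.341, with −0.0987 in the replicate 1 pair and 0.772 in the replicate 2 pair. It was 0.0269 without MT194-Cre replicate 2 and 0.127 without WT-Cre replicate 2. Without MT194-Cre replicate 1 it was 0.552, and without WT-Cre replicate 1 it was 0.578. None of the list was called without the replicate block. Of 18 collagen genes Col12a1 (0.96), Col4a1 (0.85) and Col7a1 (0.78) were higher and 3 were lower, among them Col18a1 (−0.97), and the list median was 0.0849 with −0.265 and 0.445 in the replicate pairs. The balance of the collagen list turned with single libraries: 5 were higher and 1 lower without MT194-Cre replicate 1 (median 0.35), 1 was higher and 6 lower without MT194-Cre replicate 2 (median −0.183), 1 was higher and 3 lower without WT-Cre replicate 2 (median −0.0487), and none was called without the replicate block.

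Of all genes tested 6.04% were higher and 4.9% lower. Of the 32 clustered histone genes that passed the filter on low counts 15 were higher and none was lower. Their median, 1.12, was the highest of the lists. A gene with few reads could pass this filter through the groups in which it was high. The count, the median and its rank therefore rest partly on the filter. Hist1h3b, for example, had 2 and 3 reads in WT-Cre and 22 and 11 in MT194-Cre. The list names 58, and mature histone mRNA of these clusters mostly lacks a poly(A) tail, so that poly(A)-selected libraries hold few of their reads. The median gene of the 32 had 0.476 and 0.358 CPM in WT-Cre and 1.36 and 0.722 CPM in MT194-Cre, and 13 of the 15 called genes were under 10 CPM in each of the 4 libraries. Hist1h1c, which was among the most abundant, had 54.9 and 40.3 CPM in WT-Cre and 85.9 and 63.4 CPM in MT194-Cre (0.65, standard error 0.16, adjusted p = 0.0113). Hist1h4h had 2.07 and 1.91 CPM against 6.51 and 6.16 CPM (1.67, standard error 0.20, adjusted p = 3.12e-05). Many members are near-identical in sequence, so the share of reads each receives is uncertain. The count was 7 without WT-Cre replicate 1, 8 without MT194-Cre replicate 1 and 2 without the replicate block.

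Ribosomal and mitochondrial lists were read against the 4.9% of all genes that were lower. Of 41 cytosolic ribosome genes 8 were lower and none was higher, with a median of −0.311, and Rplp0, an acidic stalk protein, had 899 and 725 CPM in WT-Cre and 533 and 422 CPM in MT194-Cre (−0.77, standard error 0.13, adjusted p = 0.000487). Of 75 oxidative phosphorylation genes Ndufa2, Ndufb2, Uqcrh and Atp5k were lower, between −0.67 and −0.50, and the list median was −0.219. That share was close to that of all genes, whereas at an adjusted p under 0.05 with no fold threshold 28 of the 75 were lower, against 10.8% of all genes. Without WT-Cre replicate 2 each list had 1 gene lower, without WT-Cre replicate 1 each had 14, and without the replicate block neither had any. Oxidative phosphorylation had 9 lower without MT194-Cre replicate 1, and the ribosome list 4 without MT194-Cre replicate 2. Of 25 citrate cycle genes Idh1 (−0.90) and Pcx (−0.66) were lower, with 5 lower without WT-Cre replicate 1 and none without the replicate block. Of 24 fatty acid oxidation genes Cpt1a, the carnitine transferase that admits fatty acids to mitochondria, was higher (139 and 151 CPM in WT-Cre, 206 and 270 CPM in MT194-Cre; 0.71, standard error 0.09, adjusted p = 3.73e-05), and Echs1 (−0.62) and Acads (−0.58) were lower. In the fatty acid oxidation list 1 gene was lower without MT194-Cre replicate 1 or without WT-Cre replicate 2, and none was called without the replicate block.

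**Figure D5:**
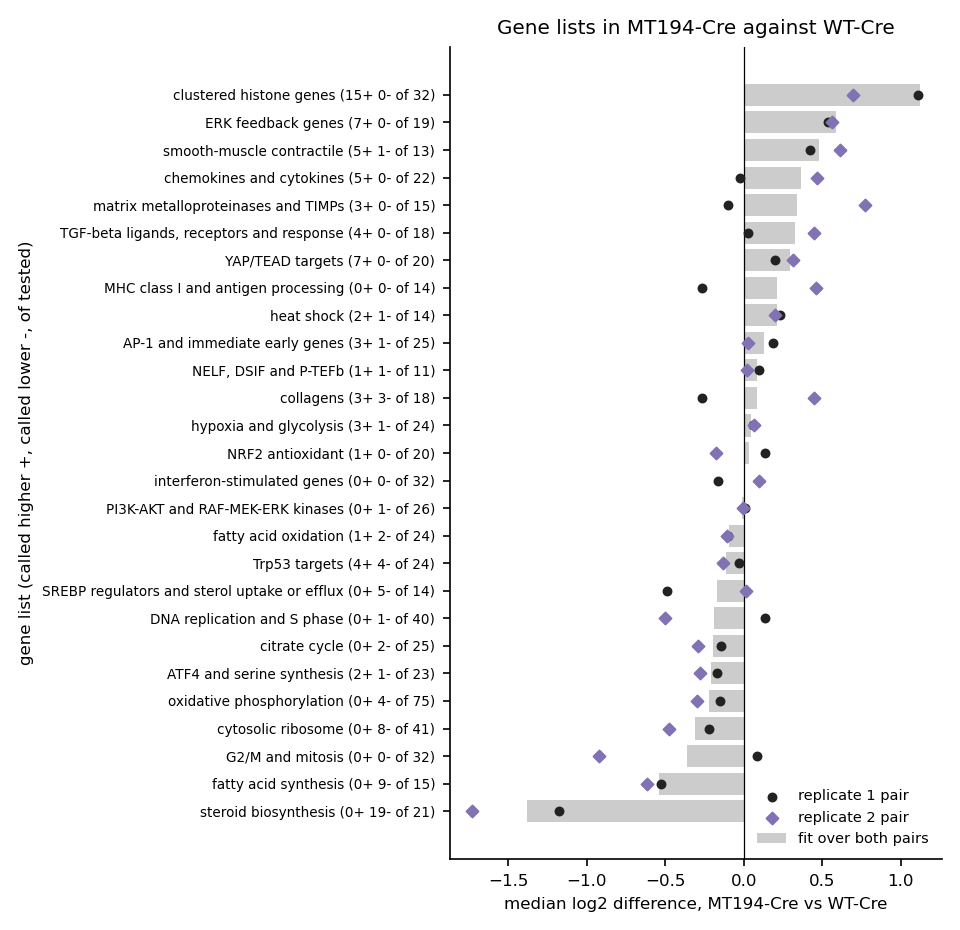
Bars give the median log2 fold change of MT194-Cre against WT-Cre for 27 gene lists, and points give the median difference within the replicate 1 pair (circles) and the replicate 2 pair (diamonds). Steroid biosynthesis lies lowest, at −1.38, and clustered histone genes highest, at 1.12. The histone value covers the 32 of 58 genes that passed the low-count filter and rests partly on that filter. In 10 of the 27 lists, among them G2/M and collagens, the pairs lie on opposite sides of 0.

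Lists of cell proliferation and interferon response held almost no calls between the 2 Ad-Cre groups. None of 32 interferon-stimulated genes was called at the fold threshold, with a median of 0.00501, and 27 of them had overlapping groups, as did 61.5% of all genes tested. Without MT194-Cre replicate 2 or without WT-Cre replicate 1 a single gene was called lower, and the median ran from −0.18 without MT194-Cre replicate 2 to 0.207 without MT194-Cre replicate 1. By the same edgeR test 2 had an unadjusted p under 0.05, among them Ifit2 (−0.47, adjusted p = 0.000658), and DESeq2 called none. In EV-Cre against EV-GFP 17 of the same genes were higher, with a median of 1.05. Isg15, a ubiquitin-like modifier, had 104 and 66.6 CPM in WT-Cre and 81.9 and 70.7 CPM in MT194-Cre, whereas EV-GFP had 62.0 and 20.9 CPM and EV-Cre 129 and 79.9 CPM. Both MT194-Cre libraries thus lay between the 2 WT-Cre libraries. None of 32 G2/M genes was called by edgeR or DESeq2, or had an unadjusted p under 0.05. Their median was −0.36, and the pairs differed, at 0.0851 in replicate 1 and −0.924 in replicate 2. The median was −0.8 without MT194-Cre replicate 1 and −0.0236 without MT194-Cre replicate 2. MT194-Cre replicate 2 was the lowest of the 4 libraries in 31 of the 32. Cdk1, the mitotic kinase, had 151 and 143 CPM in WT-Cre and 147 and 72.6 CPM in MT194-Cre (−0.48, standard error 0.31, adjusted p = 0.311). Rfc5 was the 1 of 40 S-phase genes called (−0.53, standard error 0.16, adjusted p = 0.0298). The S-phase list had a median of −0.188, with 0.135 and −0.502 in the replicate pairs. It had 4 lower without MT194-Cre replicate 1 (median −0.466), 2 lower without WT-Cre replicate 1, and none without MT194-Cre replicate 2 (median 0.119), without WT-Cre replicate 2 or without the replicate block. MHC class I and antigen processing had 0 of 14 called by edgeR, 4 at an unadjusted p under 0.05 and 1 called higher by DESeq2. By edgeR 4 were called higher without MT194-Cre replicate 1 and 1 without WT-Cre replicate 1, and the median of 0.214 ranged from −0.178 without MT194-Cre replicate 2 to 0.361 without MT194-Cre replicate 1. In MT194-GFP against WT-GFP the median was −0.662 for interferon-stimulated genes, with 1 called, and −0.407 for MHC, with none called. The Cre effect of the interferon list had a median of 1.19 with MT194, 0.593 with WT and 1.05 in EV, and the difference between MT194 and WT had a median of 0.624, with 3 genes called higher. For MHC that difference had a median of 0.567, with 1 called higher. For G2/M and S phase it was −0.784 and −0.53, with none called, and the Ad-GFP medians were 0.411 and 0.336, also with none called.

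The stress lists were mixed, and several of their counts were near the 6.04% of all genes that were higher and the 4.9% that were lower, such as 1 of 20 in the NRF2 list. Of 24 Trp53 targets 4 were higher and 4 lower, with Sesn1 at −1.001 (standard error 0.11, adjusted p = 1.28e-05) and Plk2 at 0.72 (standard error 0.10, adjusted p = 9e-05). Of 25 AP-1 and immediate early genes Maff (0.82), Ier5 (0.67) and Myc (0.65) were higher and Batf3 (−1.61) was lower. Hypoxia and glycolysis genes had 3 of 24 higher, Ankrd37 (1.49), Slc2a1 (1.02) and Vegfa (0.64), and Ndrg1 (−0.59) lower. Heat shock genes had Hspa1b (1.05) and Hspa5 (0.50) higher and Hspb8 (−0.95) lower of 14, the ATF4 list had Slc7a5 (1.02) and Slc3a2 (0.60) higher and Psat1 (−0.53) lower of 23, and the NRF2 list had Ftl1 (0.55) higher of 20. Without the replicate block 1 Trp53 target was higher and 2 lower, 1 AP-1 gene was higher and 1 lower, 1 hypoxia gene and 1 heat shock gene were higher, and no ATF4 or NRF2 gene was called. Single libraries moved these counts too. Without MT194-Cre replicate 1 the AP-1 list had 5 higher, the ATF4 list 4 lower, the Trp53 list 2 higher, the NRF2 list none and the heat shock list none lower. Without MT194-Cre replicate 2 the NRF2 list had 2 higher, the Trp53, AP-1 and hypoxia lists 2 higher each, and the ATF4 list 1 higher and none lower. Without WT-Cre replicate 1 the Trp53 list had 2 higher, the ATF4 list 2 lower and the NRF2 list 1 lower, and the hypoxia and heat shock lists had none lower. Without WT-Cre replicate 2 the AP-1 and hypoxia lists had 2 higher each, the ATF4 list 1 higher and none lower, and the heat shock list none lower.

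A part of the difference lay on genes that did not pass the test of EV-Cre against EV-GFP. Of the 834 genes higher in MT194-Cre, 576 (69.1%) were also higher in EV-Cre than in EV-GFP at an adjusted p under 0.05, against 21.2% of all genes, 13 were lower and 245 (29.4%) did not pass. Of the 676 lower, 553 (81.8%) were also lower in EV-Cre, against 21.8% of all genes, 4 were higher and 119 (17.6%) did not pass. Unc5c, a netrin receptor, had 7.61 and 13.4 CPM in WT-Cre and 30.5 and 40.9 CPM in MT194-Cre (1.79, standard error 0.18, adjusted p = 9.26e-06), against 12 and 17 CPM in EV-GFP and 11.7 and 12.1 CPM in EV-Cre. Sfrp4, a secreted Wnt antagonist, had 2.65 and 3.96 CPM against 6.09 and 13.8 CPM (1.54, standard error 0.22, adjusted p = 0.000109). Igfbp2, which binds insulin-like growth factors, had 190 and 245 CPM in WT-Cre and 44.5 and 134 CPM in MT194-Cre (−1.41, standard error 0.32, adjusted p = 0.0104). EV-GFP had 142 and 182 CPM and EV-Cre 108 and 194.3 CPM. With Ad-GFP it had 70.0 and 99.8 CPM in MT194-GFP and 152 and 167 CPM in WT-GFP (−0.95, adjusted p = 0.29). Its Cre effect was −0.03 with MT194 and 0.425 with WT, a difference that did not pass (adjusted p = 0.641). The difference in Cre effect did pass for Unc5c (1.18, adjusted p = 0.0215) and Sfrp4 (1.26, adjusted p = 0.0356). For these 3 genes the MT194-Cre libraries stood apart from the EV-Cre and the WT-Cre libraries, apart from Igfbp2 replicate 2, which lay between those of EV-Cre. Further genes of this kind were Mfap3l, Kcna4, C530008M17Rik, Plxdc2 and Syt13, which were higher, and Zcchc5, Phf11b, Particl, Gm15421, Aldh1a7 and Snhg8, which were lower.

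With the floxed allele in place the number of genes that differed between the 2 lines depended on the fit. In MT194-GFP against WT-GFP 35 of 13805 genes (0.254%) were called, 18 higher (0.13%) and 17 lower (0.123%), and none without the replicate block (323 at an unadjusted p under 0.05). DESeq2 with the block called 104, edgeR on the compared libraries alone called 351, and leaving out 1 library left 1 (without MT194-GFP replicate 2 or WT-GFP replicate 2), 9 (without MT194-GFP replicate 1) or 18 (without WT-GFP replicate 1). Of the 834 genes higher in MT194-Cre 14 were called higher in MT194-GFP, and of the 676 lower 7 were called lower. Among them were Fhl1, with 21.1 and 15.3 CPM in WT-GFP and 54.4 and 42.8 CPM in MT194-GFP (1.42, adjusted p = 0.00902), Sult1c2, with 31.0 and 25.6 CPM against 10.5 and 5.72 CPM (−1.85, adjusted p = 0.000203), and Stk32b (−1.09, adjusted p = 0.0102). Plxdc2, Syt13 and C530008M17Rik, named above among the genes that did not pass in EV-Cre against EV-GFP, were higher in MT194-GFP as well (0.81, 1.90 and 1.497). The difference in Cre effect, that of MT194 minus that of WT, was called for 354 genes (2.56%), 157 higher (1.14%) and 197 lower (1.43%), and for none without the replicate block (615 at an unadjusted p under 0.05). This comparison uses the libraries of the main one, so its calls are not independent of it. It included 17 of the 21 steroid biosynthesis genes, all lower, with a median of −1.47 over the list.

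Stable clones gave a further comparison in separate libraries. In 3 clones with MT194 against 3 with WT(N48), a wild-type construct that the labels place in a pBabe and not a pLenti vector, Nelfb had 197, 217 and 152 CPM of reads on genes in MT194 and 226, 125 and 57.7 CPM in WT(N48), and 770 of 13223 genes (5.82%) were called, 339 higher (2.56%) and 431 lower (3.26%). Of the genes higher in MT194-Cre, 794 were tested in the clones, and 48 were called higher and 17 lower there, with a median of 0.159. Of the genes lower in MT194-Cre, 645 were tested, and 55 were called lower and 14 higher, with a median of −0.0649. Insig1 (−2.31, adjusted p = 0.00419), Fdps (−2.33, adjusted p = 0.00191) and Idi1 (−2.74, adjusted p = 0.00191) were lower in the MT194 clones too. Mvd (−1.60, adjusted p = 0.0545) and Tm7sf2 (−0.67, adjusted p = 0.4) did not pass. Smoc1 (−0.62, adjusted p = 0.68) and Ctgf (−2.98, adjusted p = 0.0883), higher in MT194-Cre, did not pass in the clones. Of the 53 named genes higher in MT194-Cre that were tested in the clones none was called higher in the MT194 clones and 4 were called lower, namely Fhl1, Cnn1, Hbegf and Etv4, whereas of the 45 named genes lower in MT194-Cre and tested there 7 were called lower and none higher. Fhl1 had 0.102, 0.191 and 0.155 CPM of reads on genes in the MT194 clones and 168, 97.9 and 0.683 CPM in WT(N48) (adjusted p = 0.0383). Hbegf had 21.5, 38.1 and 36.2 CPM against 213, 106 and 52.1 CPM (−2.05, adjusted p = 0.0463). For Cnn1 (−4.09, adjusted p = 0.0488) and Etv4 (−1.91, adjusted p = 0.0406) WT(N48) clone 3 was likewise the lowest of its group. Clones are single-cell lines that grew after deletion, so their spread is that between clones. Without WT(N48) clone 1 the count was 57. A second comparator was the 3 single clones with wild-type NELFB in the pLenti vector. Their titles read WT-Cre, the name used here for the populations. Of these, 2 held Nelfb at 10.9 and 16.4 CPM and the other at 112 CPM, and WT(N48) was preferred because of the 2 low values. Against the pLenti clones the count was 384 (2.9%), 169 higher (1.28%) and 215 lower (1.63%). There, 22 of the 794 genes higher in MT194-Cre were called higher and 5 lower. Of the 645 genes lower in MT194-Cre, 8 were called lower and 6 higher.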

How the data were processed

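Poly(A) RNA of 20 populations and 15 stable clones was sequenced. Per the labels and the paper's methods, the authors aligned reads to mm10 with Bowtie2 and counted them per gene with HTSeq (versions not given in the sources used here). The deposited counts of 24421 genes are not normalized, and strand use is not stated, so reads of overlapping genes may be mixed. Reads outside genes, 11.7% to 15.3% of those in the 4 main libraries, were left out.

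CPM and all tests came from edgeR 4.0.16 in R 4.3.3 (TMM, filterByExpr, robust quasi-likelihood), fitted to all 20 populations with 1 mean per group and the replicate number as a block, over 13805 genes. Clones were fitted apart without a block. The standard error is the log2 fold change divided by the square root of F. Differences within a replicate pair use a prior count of 2. Thresholds on the fold change were those of the study. Replicate numbers pair the populations: the study describes 2 independent experiments, and deviations from the group means correlated in 45 of 45 pairs of groups (0.42 to 0.73, median 0.586). No 2 replicates agreed within counting noise.

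Named genes were the NELF subunits, the 12 largest changes in each direction and, of EV genes, the 8 largest short of rescue (called, averaging 50 counts or more, groups apart), up to 4 called genes of each list, and all genes of a count of 5 or fewer. Some genes that these rules take in are not reported here. Other list members, the genes that did not pass in EV and those that went against the change in EV were named after their values were seen. The members and lists were chosen with earlier results of these data known. Alternatives were DESeq2 1.42.0, its size factors, no filter, no block, other thresholds, the compared libraries alone and each library left out. The steps were tested on simulated data. Positions are from GENCODE on GRCm38 (704 of 707 genes matched), promoters from RefSeq and the oligo from the study's supplementary list.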

Additional observations from a re-analysis of the deposited data

Results flagged for a closer look

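For 354 genes, 157 higher and 197 lower, the Cre effect with MT194 differed from that with WT by an interaction test across all genes (edgeR, Benjamini-Hochberg adjustment, absolute log2 difference over 0.5). Without the replicate block 0 genes were called, and with only the compared libraries 14 were called. The number also moved when single libraries were left out. The values below are the log2 Cre effect of MT194 minus that of WT for the named genes among the 354. Nelfb itself stood at 1.12. Of the largest increases, the difference was 2.11 for 1700029J07Rik, 2.01 for Tll1, 1.98 for Cdnf, 1.76 for Atp8b4, 1.63 for Serpini1 and 1.42 for Smoc1. Of the largest decreases, the difference was −2.28 for Lipg, −2.15 for Mvd, −1.99 for Fdps, −1.75 for Dpp4, −1.74 for Fam69c, −1.68 for Anpep, −1.68 for Stk32b, −1.59 for Sult1c2, −1.54 for Kank4, −1.5 for Batf and −1.42 for Fmo1. Among sterol and fatty acid genes outside these it was −1.83 for Tm7sf2, −1.81 for Insig1, −1.56 for Scd2, −1.5 for Stard4, −1.39 for Scd1, −1.01 for Elovl6 and −0.893 for Fads1. Among secreted factors and signaling genes it was 1.86 for Cyr61, 1.84 for Il6, 1.71 for Hbegf, 1.21 for Ereg, 1.08 for Inhba, 1.04 for Smad7, 0.854 for Fbln2, 0.762 for Vegfa and −0.513 for Map2k7. Among stress and Trp53 genes it was 1.57 for Ankrd37, 1.07 for Hspa1b, 0.584 for Ftl1, 0.569 for Ier5, −1.08 for Bbc3, −1.71 for Perp, −0.79 for Sesn1 and −0.736 for Psat1. Among genes of mitochondrial metabolism it was 0.694 for Cpt1a, −0.867 for Idh1, −0.556 for Pcx and −0.549 for Ndufa2. Nelfb was called although both lines carry a construct: with WT its level was 97.5 and 82.8 CPM with Ad-GFP and 75.9 and 60.5 CPM with Ad-Cre, and with MT194 it was 74.0 and 62.1 CPM and then 104 and 119 CPM. Its part in the other differences was not tested.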

How the results depend on the processing

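Without the replicate block the comparison of MT194-Cre with WT-Cre called 191 genes in place of 1510, EV-Cre against EV-GFP called 900 in place of 1344, of which 118 (13.1%) in place of 554 (41.2%) were short of the wild-type rescue, and the interaction and MT194-GFP against WT-GFP called 0 in place of 354 and 35. Of the 108 named genes 72 then missed the threshold and none reversed under any setting. Without MT194-Cre replicate 1 or 2 the threshold was missed by 14 and 27 of the 108, and without WT-Cre replicate 1 or 2 by 16 and 36, among the latter Nelfb, Idi1 and Il6. With the compared libraries alone the counts were 736 for MT194-Cre against WT-Cre, 14 for the interaction, 351 for MT194-GFP against WT-GFP and 134 for the clones. DESeq2 called 1461 genes in MT194-Cre against WT-Cre, 1367 of them shared, 104 in MT194-GFP against WT-GFP and 1744 in the clones, whose count was 472 without the low-count filter and 384 with the pLenti WT clones as comparator. With no fold threshold the counts were 3058 for MT194-Cre against WT-Cre, 5935 for EV and 2117 for the genes short of rescue. With a log2 threshold of 1 they were 449, 128 for the interaction, 13 for MT194-GFP against WT-GFP, 429 for the clones and 287 for the genes short of rescue, and with 0.5 in EV they were 3502 for EV and 1015 short of rescue. Leaving out 1 library at a time gave 868 to 1707 for MT194-Cre against WT-Cre, 97 to 645 for the interaction, 1 to 18 for MT194-GFP against WT-GFP (without MT194-GFP replicate 2 and WT-GFP replicate 1), 57 to 1393 for the clones (without WT(N48) clones 1 and 3), 383 to 562 for the genes short of rescue and 1096 to 1378 for EV. A group left with 1 library was assumed to vary like the others, and the cause of these shifts was not tested. No scaling moved the median of all genes by more than 0.1 on the log2 scale.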
